A study of Mus musculus with 53 samples.

Results

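The genes described here make cholesterol and fatty acids, switch that synthesis on and off, or carry the products out of the cell. They are a fixed list of 37 symbols, matched to Ensembl identifiers through the GENCODE annotation, out of 53379 genes in the deposited count tables. The rule that lists them names no measured value, but the list was chosen with earlier results of these data known. By role, 18 are enzymes of sterol synthesis, 6 belong to the control of that synthesis by SREBP, 9 make or modify fatty acids, and 4 act in sterol efflux and lipoprotein handling. All 37 had counts, and 37 were kept by the filter on low counts in the fits of all male groups of the PVN and of the ARC. In the fits of chow-fed mice alone 36 were kept in the PVN of either sex and 35 in the ARC.

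Cells build cholesterol from acetyl-CoA by way of mevalonate, and fatty acids from malonyl-CoA. Both routes are driven by SREBP transcription factors, which Scap escorts from the endoplasmic reticulum to the Golgi when membrane sterol is low, and which Insig proteins hold back when it is high. Brain makes nearly all of its own cholesterol, since plasma lipoproteins do not cross the blood-brain barrier, and much of the synthesis serves myelin made by oligodendrocytes, while astrocytes secrete ApoE particles loaded through Abca1. Liver X receptors raise Abca1, Abcg1 and Srebf1 when sterol accumulates.

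RNA was measured in single hypothalamic nuclei cut out by laser from cresyl violet stained sections of C57BL/6 mice, labelled adult, with an age of 13 to 14 weeks in the protocol. *Nnat*+/-p mice carry a null allele of the imprinted gene *Nnat* inherited from the father and lack its product throughout the body, and *Nnat*+/+ mice are the wild type. Chow-fed *Nnat*+/-p mice were divided by labelled weight into non-obese and obese, and male mice of either genotype were also kept on a high-fat diet (HFD) from a young age. In the paraventricular nucleus (PVN) of males the groups were *Nnat*+/+ on chow (n = 3, 31.4 to 33.5 g), non-obese *Nnat*+/-p on chow (n = 3, 27.4 to 34.3 g), obese *Nnat*+/-p on chow (n = 4, 38.8 to 46.5 g), *Nnat*+/+ on HFD (n = 6, 37.4 to 42.9 g) and *Nnat*+/-p on HFD (n = 3, 38.2 to 43.9 g). In the arcuate nucleus (ARC) of males the same groups held 2, 4, 4, 6 and 4 libraries. The female PVN was sampled on chow alone, with 4 *Nnat*+/+ (24.1 to 24.6 g), 3 non-obese *Nnat*+/-p (20.4 to 23.9 g) and 3 obese *Nnat*+/-p libraries (31.5 to 33.35 g). Where labels share a weight within or across nuclei, whether the libraries come from separate mice is not stated, and p-values then measure the spread between libraries.

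Of 53 libraries 49 were used, with 2268021 to 8560199 counts per library in the male PVN, 1479953 to 18058097 in the male ARC and 6219365 to 30228973 in females. *Nnat* itself lay at 232 to 532 CPM in *Nnat*+/+ libraries and at 0.268 to 17.4 CPM in *Nnat*+/-p libraries, so the genotype labels held in all 49. CPM of single genes are counts scaled to a library size adjusted by TMM factors, the scaling between libraries used in the fits. CPM of marker sums are counts scaled to the total of each library without these factors, so the scales differ. Each nucleus was checked with its own neuronal markers. Replicate 15, labelled male PVN *Nnat*+/+ on chow, held 9.773 CPM of 5 PVN neuron markers in sum (*Avp*, *Oxt*, *Sim1*, *Crh* and *Trh*) against 1232 and 1740 CPM in the other 2 of its group, and 160 CPM of ARC neuron markers against 8.771 and 15.26 CPM. Replicate 24, PVN *Nnat*+/+ on HFD, held 150 CPM of the PVN markers, the lowest of its group of 6. Most medians over members in the PVN are therefore also given without one or both of these libraries. Among the ARC libraries, replicate 43 of the non-obese group on chow held 11.9 CPM of ARC neuron markers against 61.5, 75.5 and 113 CPM in the other 3 of its group, and 48.8% of its counts were mitochondrial, the highest share of all 49. Left-out replicate 35, an ARC *Nnat*+/+ chow library of 271324 counts, held 682 CPM of PVN neuron markers and 40.5 CPM of ARC neuron markers. Replicates 15 and 35 carry the same labelled weight, 32.45 g, and whether their labels were exchanged was not tested. Replicates 24 and 30 of the PVN and 44 and 51 of the ARC carry HFD weights that the other nucleus assigns to the other genotype.

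The promoters of 4 of the genes are shown because they differed most from chow on HFD, by unadjusted p, among those with a RefSeq start window that lies outside the annotated transcribed region. Each run is the 250 bases upstream of the RefSeq start on GRCm38.p6, written on the strand of the gene with the start following the last base. Capitals mark letters of a sterol regulatory element (TCACNCCAC), of the box CCAAT bound by NF-Y, or of the E-box CACGTG, on either strand, so that a reverse CCAAT reads ATTGG. *Scap* encodes the SREBP escort, *Hmgcs1* the enzyme that makes HMG-CoA, *Ebp* a sterol isomerase late in the pathway, and *Abca1* the transporter that loads ApoE.
*Scap* promoter, chr9:110333038-110333287, plus strand: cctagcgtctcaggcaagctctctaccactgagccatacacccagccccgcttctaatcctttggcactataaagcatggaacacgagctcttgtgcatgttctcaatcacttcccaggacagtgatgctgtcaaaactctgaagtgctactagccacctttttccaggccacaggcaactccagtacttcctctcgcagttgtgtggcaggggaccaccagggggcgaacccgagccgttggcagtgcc
*Hmgcs1* promoter, chr13:119690101-119690350, plus strand: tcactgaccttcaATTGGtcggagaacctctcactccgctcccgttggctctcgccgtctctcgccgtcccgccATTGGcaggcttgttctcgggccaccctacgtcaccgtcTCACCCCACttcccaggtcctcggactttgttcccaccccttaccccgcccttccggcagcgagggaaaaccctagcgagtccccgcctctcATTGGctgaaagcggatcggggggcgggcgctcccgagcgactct
*Ebp* promoter, chrX:8193513-8193762, minus strand: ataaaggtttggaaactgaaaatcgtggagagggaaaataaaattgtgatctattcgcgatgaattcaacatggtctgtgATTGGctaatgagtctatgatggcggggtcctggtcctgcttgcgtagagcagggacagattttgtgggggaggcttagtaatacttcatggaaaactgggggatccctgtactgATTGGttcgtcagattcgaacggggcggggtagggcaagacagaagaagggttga
*Abca1* promoter, chr4:53159896-53160145, minus strand: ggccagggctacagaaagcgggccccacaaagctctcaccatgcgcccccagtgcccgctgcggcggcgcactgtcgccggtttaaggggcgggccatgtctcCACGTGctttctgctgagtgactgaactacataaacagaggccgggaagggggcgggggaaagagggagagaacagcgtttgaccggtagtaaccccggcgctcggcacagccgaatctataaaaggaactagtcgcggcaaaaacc

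The *Hmgcs1* window held TCACNCCAC at 137 bases before the start and reverse CCAAT at 237, 176 and 45 bases before it. This element was found in 1.05% of all 32851 RefSeq windows of the same length and in no other member's window. *Ebp* held reverse CCAAT at 170 and 55 bases before the start, and *Abca1* held CACGTG at 147 bases before it. None of these letters were found in the *Scap* window shown, and the 7 members with CACGTG include *Scap* only through its second annotated start. CCAAT was present in 21 of 38 windows of 28 members (55.3%) against 33.8% of all windows, and CACGTG in 7 of 38 (18.4%) against 6.02%. The shorter core CACNCCAC, which overlaps the longer element, was in the windows of *Acat2*, *Hmgcs1* and *Insig1*, 7.89% of member windows against 5.29% of all. The shares are a description of the sequence, and binding was not measured. *Abcg1*, *Fads1*, *Fdft1*, *Fdps*, *Lpl*, *Scd1*, *Scd2*, *Sqle* and *Stard4* were not matched to a window.

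Levels between genes were compared as CPM per kilobase of exon. The male PVN libraries include replicate 15, which held 9.773 CPM of PVN neuron markers, and levels without it are not given here. *Apoe*, the lipoprotein of astrocytes, stood highest in every *Nnat*+/+ chow group, at 479 ± 89.8 CPM per kb (SD, n = 3) in the male PVN and 467 ± 29.3 (n = 2) in the ARC. The desaturase *Scd2*, which places a double bond in stearoyl-CoA, followed at 145 ± 46.7 in the PVN and 175 ± 13.0 in the ARC. Its neighbour *Scd1* lay below it at 34.2 ± 15.0 and 50.0 ± 7.46 CPM per kb, and *Hmgcs1* was the highest of the sterol enzymes at 26.9 ± 12.2 and 30.4 ± 2.92. In the male PVN the next genes, *Fads2* (20.2 ± 3.29), *Fads1* (19.1 ± 7.08), *Acly* (18.4 ± 1.83), *Fasn* (16.7 ± 4.31) and *Srebf2* (15.9 ± 6.22), lay within their spread of each other. They make polyunsaturated fatty acids, cytosolic acetyl-CoA and palmitate, and drive sterol synthesis. At the low end were *Fdps* (0.779 ± 0.877), *Tm7sf2* (0.424 ± 0.293), *Idi1* (0.211 ± 0.314) and *Lpl* (0.206 ± 0.214 CPM per kb), whose order cannot be read from these libraries. *Idi1* had a median of 3 counts per library and *Lpl* 7, so differences in them were not detectable at this depth unless very large.

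**Figure D1:**
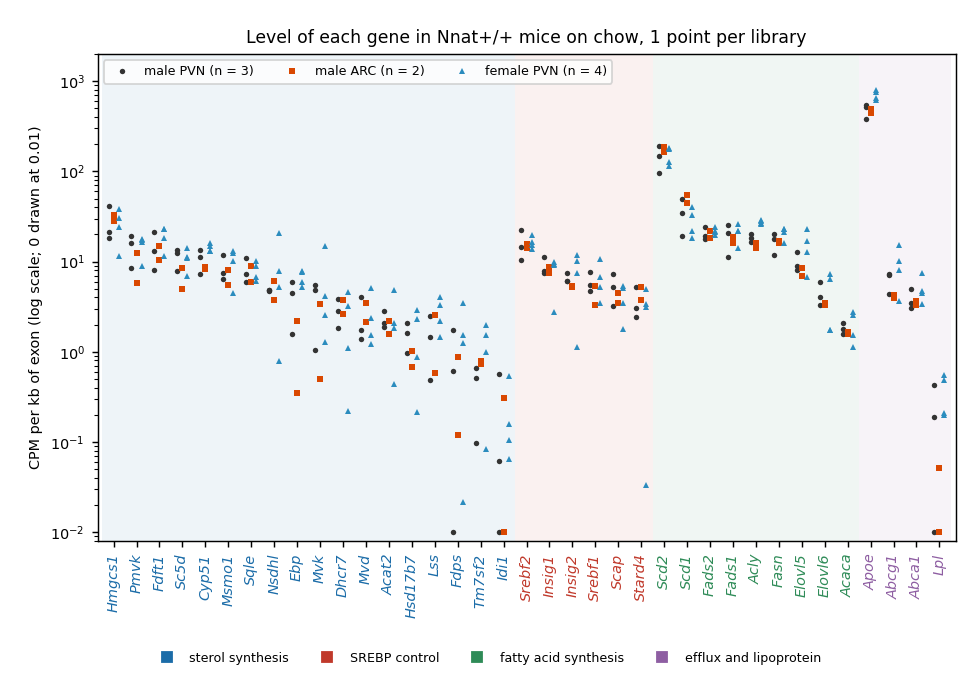
Level of each gene (CPM per kb of exon, log scale) in *Nnat*+/+ mice on chow, with 1 point per library for the male PVN (n = 3), male ARC (n = 2) and female PVN (n = 4), genes grouped by role. *Apoe* and *Scd2* lie above all others, and *Idi1*, *Tm7sf2* and *Lpl* lie near the bottom. The male PVN points include replicate 15, which held few PVN neuron markers.

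Some of the levels may depend on how reads shared between genes were counted, which is not given in the sources used here. Its effect on the levels was not tested. Of the 50-base stretches in the transcripts of *Acat2*, 39.1% also occur in another gene, on either strand. The share was 30.4% for *Acaca*, with 335 other genes, 26.5% for *Fdft1*, 26.2% for *Fdps*, with 8 other genes, and 25.3% for *Idi1*. Values of these 5 genes are uncertain for that reason. *Scd1* and *Scd2* share 4.56% and 3.97% with other genes, each other included, and *Hmgcs1* shares 11.6% with 125 other genes.

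The study set *Nnat*+/-p mice against *Nnat*+/+ littermates under different feeding conditions, and the comparison described first here is HFD against chow within each nucleus and genotype. No member was called in any of the 17 comparisons by edgeR's quasi-likelihood test at an adjusted p under 0.25, the threshold of the study. Unadjusted p under 0.05 was reached by 0 to 5 members in a comparison. DESeq2 and limma also called 0 members, except in the ARC on HFD, where each called 2 in *Nnat*+/+ and 1 in *Nnat*+/-p mice, and in the female PVN, where DESeq2 called 1 for obese against non-obese mice. Read as one value per library, the mean log2 CPM of all members was 4.78 ± 0.35 (SD, n = 3) in the PVN of *Nnat*+/+ mice on chow and 4.80 ± 0.17 (n = 6) on HFD, and 4.58 ± 0.06 (n = 2) and 4.45 ± 0.15 (n = 6) in the ARC. In *Nnat*+/-p mice on HFD it was 4.68 ± 0.08 (n = 3) in the PVN and 4.502 ± 0.211 (n = 4) in the ARC, against 4.60 ± 0.08 and 4.52 ± 0.16 in non-obese and obese chow-fed mice of the PVN and 4.47 ± 0.18 and 4.66 ± 0.08 of the ARC. The libraries on HFD and on chow overlapped in both nuclei and both genotypes. In these bulk samples fewer cells of a type cannot be told apart from less RNA per cell.

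**Figure D2:**
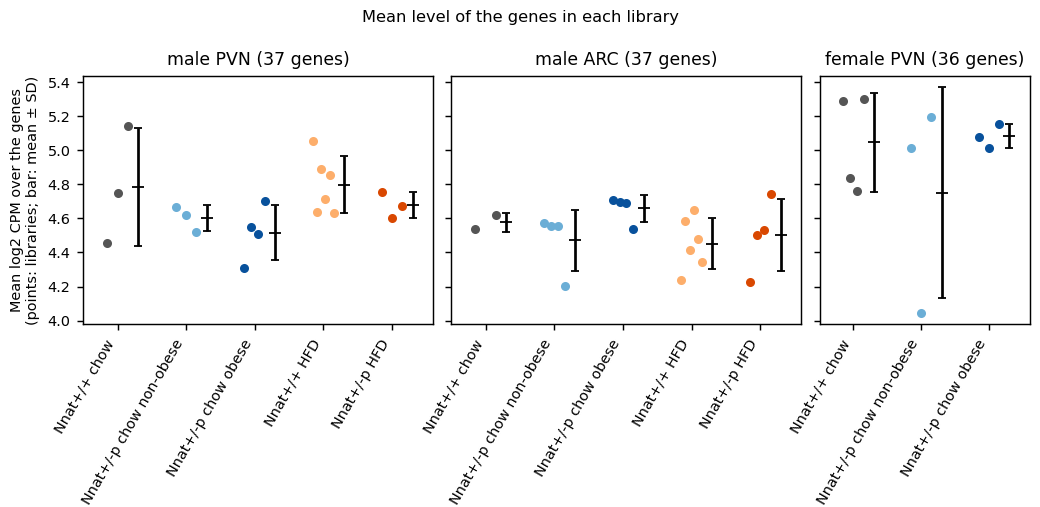
Mean log2 CPM over the members in each library, by group, for the male PVN, male ARC and female PVN, where points are libraries and the bar gives mean ± SD. The 3 PVN *Nnat*+/+ chow libraries span 4.46 to 5.14, wider than the mean difference between any 2 male PVN groups, and the highest of them is replicate 15.

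**Figure D3:**
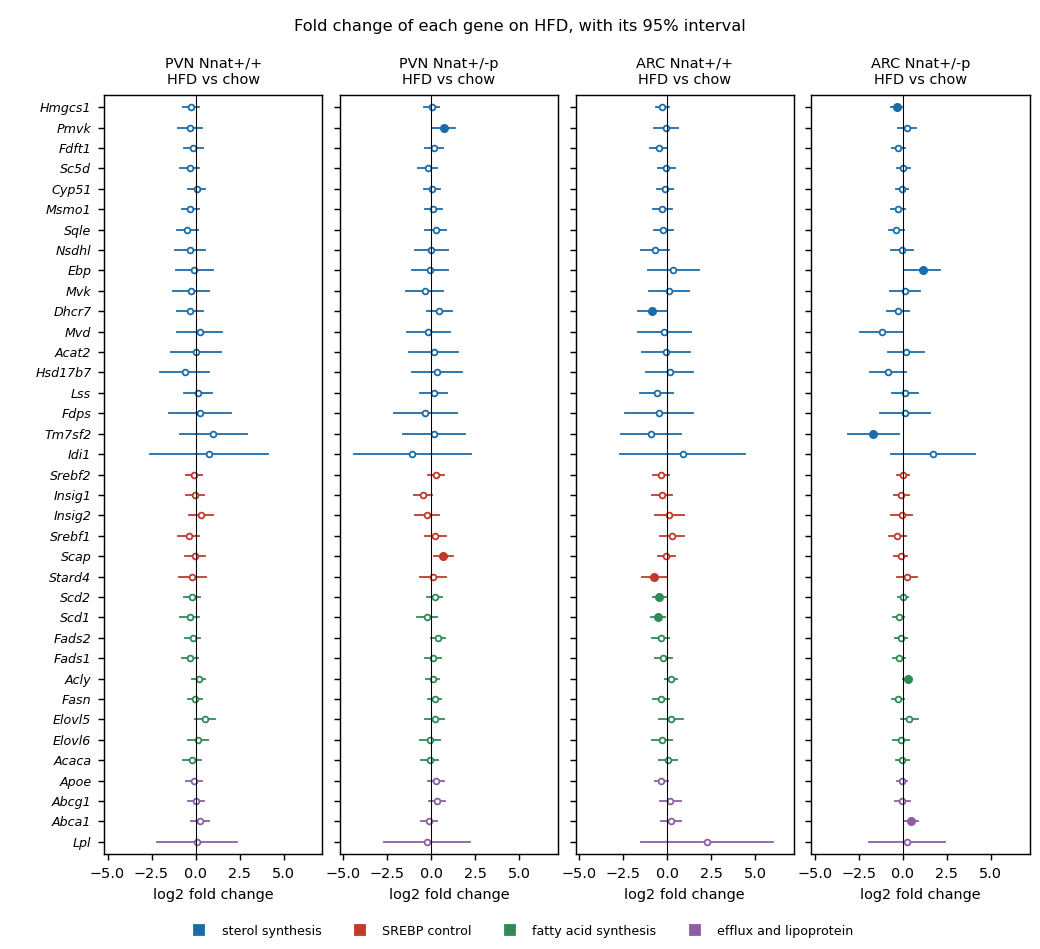
Log2 fold change of each member on HFD against chow with its 95% interval, in 4 panels for nucleus and genotype, where filled points have an unadjusted p under 0.05. Filled points number 0 in the PVN of *Nnat*+/+ mice, 2 in that of *Nnat*+/-p mice, and 4 and 5 in the ARC, and intervals are widest for the least abundant genes.

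In the PVN of *Nnat*+/+ mice the sterol and fatty acid genes on HFD were close to chow. Of 37 members 0 were called, against 1.43% of all 17576 genes, and 0 had an unadjusted p under 0.05, against 10.3% of all genes. On the log2 scale, where 1 is a change by a factor of 2, their median difference was -0.07 beside -0.03 over all genes, with 14 members above 0 and 23 below. The median was -0.19 for sterol synthesis, -0.06 for SREBP control, -0.16 for fatty acid synthesis and 0.04 for efflux. These medians include replicate 15 and are not given without it. Its mean over sterol synthesis genes was 4.24 log2 CPM, against 3.40 and 3.47 in chow replicates 13 and 14 and 3.56 to 3.91 on HFD. For fatty acid synthesis its mean was 6.63, against 6.14 and 6.66 in replicates 13 and 14 and 6.27 to 6.79 on HFD. The 95% interval of 22 members lay within a change by a factor of 2 in either direction, and that of 8 within a factor of 1.5. CPM ranges of HFD and chow did not overlap for 0 members and for 5.85% of all genes. The member with the smallest adjusted p, *Elovl5*, an elongase of polyunsaturated fatty acids, differed by 0.53 on the log2 scale (SE 0.29, edgeR adjusted p = 0.552).

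The sign of that median rested on 1 library. It moved from -0.07 to 0.05 without replicate 15, to 0.08 without replicates 15 and 24, and to -0.19 without replicate 13. Replicate 15 had the highest *Scd2* of all PVN libraries, 1036 CPM, against 525.8 and 809.9 CPM in the other 2 of its group, and the highest *Hmgcs1*, 188 CPM against 98.3 and 84.2 CPM. On HFD *Scd2* ran from 585 to 992 CPM with a median of 637, and *Hmgcs1* from 77.1 to 143 CPM with a median of 101. Both ranges on HFD lay inside those of the 3 chow libraries but for the lower end of *Hmgcs1*.

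In the PVN of *Nnat*+/-p mice no member passed, and 2 reached an unadjusted p under 0.05, both with higher values on HFD, a smaller share of members (5.41%) than of all genes (7.05%). Chow here is the mean of the obese and the non-obese group. *Scap* lay at 48.6, 42.9 and 46.6 CPM on HFD, at 25.0, 18.4 and 31.9 CPM in non-obese mice on chow, and at 14.8, 44.0, 36.0 and 33.6 CPM in obese mice on chow. Only the highest obese library reached into the HFD range. Its difference was 0.69 on the log2 scale (SE 0.26, interval 0.16 to 1.22), with adjusted p = 0.5999 by edgeR. In *Nnat*+/+ mice the same gene ranged from 28.2 to 50.5 CPM on HFD with a median of 37.0, and lay at 23.9, 38.6 and 53.7 CPM on chow, a difference of -0.03 (SE 0.27). Its transcripts share 9.96% of their 50-base stretches with 1 other gene.

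*Pmvk*, which phosphorylates mevalonate phosphate, lay at 23.5, 26.7 and 10.7 CPM on HFD. On chow it was at 14.1, 18.4 and 16.2 CPM in non-obese and 4.46, 12.5, 7.53 and 13.9 CPM in obese *Nnat*+/-p mice. The HFD libraries fell on both sides of the non-obese ones. Its difference was 0.71 (SE 0.33, interval 0.04 to 1.37), with adjusted p = 0.6977 by edgeR, and it was 0.33 against non-obese and 1.08 against obese chow alone. The counts of members were 0 called, against 0.239% of all genes, and the 2 named above at an unadjusted p under 0.05. Ranges overlapped for every member and did not for 1.43% of all genes. The median over members was 0.09 with 23 above 0 and 14 below, beside -0.04 over all genes. Without replicates 15 and 24, which belong to other groups of the same fit, it was 0.10, and the differences were 0.71 for *Scap* and 0.72 for *Pmvk*. The HFD libraries were deeper, at 6667729 to 7834090 counts, than those on chow, at 2268021 to 5569950, and the part of depth in the result was not tested.

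In the ARC of *Nnat*+/+ mice no member passed edgeR's test, and 4 reached an unadjusted p under 0.05, the desaturases *Scd1* and *Scd2*, *Dhcr7* and *Stard4*, each with lower values on HFD than in the 2 chow libraries. *Scd1* lay at 219 and 270.5 CPM on chow and from 121 to 219 CPM on HFD, with a median of 173. The highest HFD library was level with the lower chow one. Its difference was -0.51 on the log2 scale (SE 0.19, interval -0.89 to -0.13), with adjusted p = 0.3745 by edgeR, above the threshold. *Scd2* lay at 907 and 1007 CPM on chow and from 537 to 903 CPM on HFD with a median of 695, with no overlap. Its difference was -0.44 (SE 0.19, interval -0.82 to -0.06, edgeR adjusted p = 0.4732). DESeq2's Wald test called both, *Scd1* at adjusted p = 0.1384 and *Scd2* at 0.1459. They were among 6.49% of the 5174 genes to which it gave an adjusted p, and *Dhcr7* and *Stard4* were given none. By limma with sample weights *Scd1* and *Scd2* were called at 0.1021 and 0.1346, among 4.44% of its genes. In *Nnat*+/-p mice of the ARC the ranges of HFD and chow overlapped for both genes. There *Scd1* ran from 137.6 to 197.4 CPM on HFD and from 147.7 to 226.5 CPM in the 8 chow libraries. *Scd2* ran from 664.9 to 954.3 CPM on HFD and from 645.1 to 937.6 CPM on chow. Both genes sit on chromosome 19 of GRCm38, *Scd1* between positions 44394455 and 44407879 (minus strand) and *Scd2* between 44293674 and 44306864 (plus strand).

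**Figure D4:**
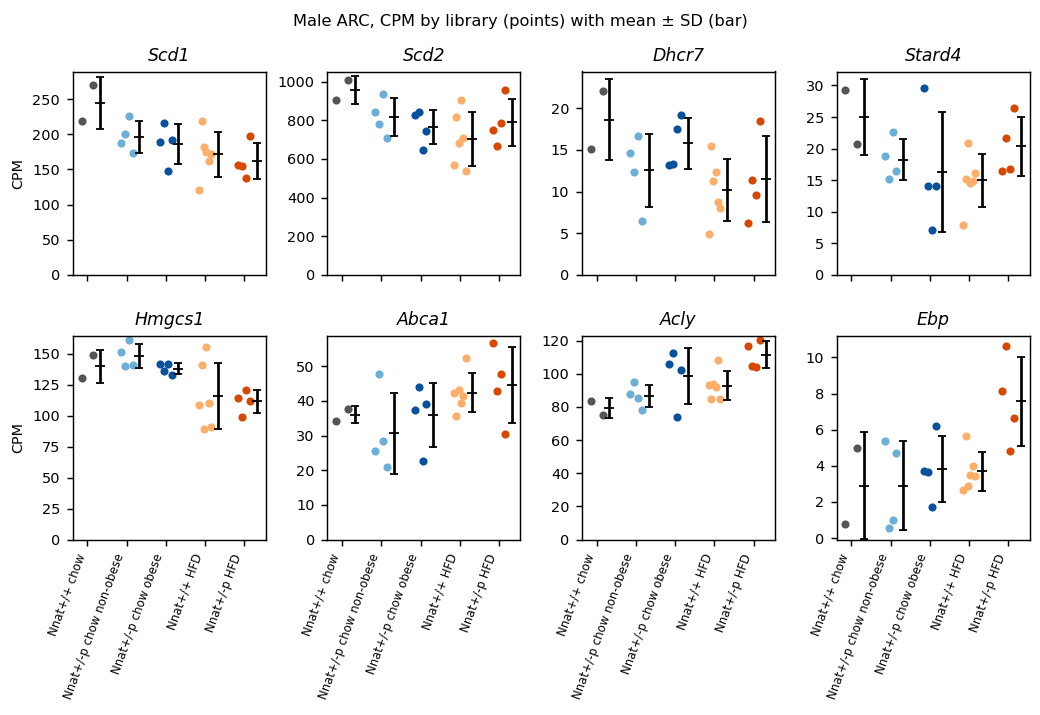
CPM of 8 members in each male ARC library by group, where points are libraries and the bar gives mean ± SD. *Scd2* in *Nnat*+/+ mice on HFD lies below both *Nnat*+/+ chow libraries, while in *Nnat*+/-p mice its HFD and chow libraries overlap. *Hmgcs1* in *Nnat*+/-p mice lies lower on HFD (99.04 to 120.8 CPM) than in any of the 8 chow libraries (132.8 to 160.8 CPM).

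*Dhcr7*, the last reductase of cholesterol synthesis, lay at 15.2 and 22.0 CPM on chow and from 4.91 to 15.5 CPM on HFD with a median of 10.0. A single HFD library, replicate 45, passed the lower chow library. The difference was -0.85 (SE 0.39, interval -1.64 to -0.06, edgeR adjusted p = 0.5446). *Stard4*, a carrier of cholesterol between membranes, was named after its values were seen, as the remaining member at an unadjusted p under 0.05. It lay at 29.3 and 20.8 CPM on chow and from 7.93 to 21.0 CPM on HFD with a median of 15.1, and differed by -0.73 (SE 0.35, edgeR adjusted p = 0.5744). All 4 differences rest on the same 2 chow libraries. That of *Dhcr7* was -0.52 without replicate 34 and -0.46 with replicate 35 among the chow libraries. That of *Stard4* was -0.47 without replicate 33 and -0.33 with replicate 35. Replicate 35 held 682 CPM of PVN neuron markers, so the values with it are not those of the ARC alone.

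Counted over the list, 0 of 37 members were called by edgeR, against 1.16% of all 15753 genes, and 4, all lower, had an unadjusted p under 0.05 (10.8% of members), against 8.54% of all genes. The median over members was -0.21 with 12 above 0 and 25 below, beside 0.02 over all genes, and it lay at -0.18 for sterol synthesis, -0.17 for SREBP control, -0.27 for fatty acid synthesis and 0.21 for efflux. CPM ranges did not overlap for 8 members, 2 higher on HFD (*Acly* and *Lpl*) and 6 lower (*Apoe*, *Elovl6*, *Fasn*, *Nsdhl*, *Scd2* and *Tm7sf2*), against 14.1% of all genes, a high share that 6 against 2 libraries allow. *Fasn*, the palmitate synthase, ran from 118 to 174 CPM on HFD below 177 and 185 CPM on chow, a difference of -0.34 (SE 0.21, edgeR adjusted p = 0.7002). *Acly*, which makes cytosolic acetyl-CoA, ran from 84.8 to 109 CPM above 75.4 and 83.8 CPM, a difference of 0.22 (SE 0.18, adjusted p = 0.8129).

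Markers of other cell types moved with this comparison. Their sums are scaled to the total of each library without TMM factors, unlike the CPM of single genes. On HFD replicate 44 was lowest at once for oligodendrocyte (214 CPM), oligodendrocyte precursor (35.1 CPM), astrocyte (1227 CPM) and microglia markers (68.8 CPM). The part of this scaling in the shifts of the sums was not tested. The sum of 10 oligodendrocyte markers, all counted in every library, was 862 and 1015 CPM on chow and 214 to 750 CPM on HFD, without overlap. The sum of 6 general neuron markers was 1040 and 1102 CPM on chow against 377 to 978 CPM on HFD, also without overlap, and that of 7 astrocyte markers was 1980 and 2244 CPM against 1227 to 2175 CPM. The sum of the ARC neuron markers went the other way, 43.0 and 48.9 CPM on chow against 76.8 to 600 CPM on HFD. Endothelial and vascular markers (5 in sum, 119 and 122 CPM on chow against 53.6 to 115 CPM) and ependymal and tanycyte markers (5 in sum, 5.11 and 11.0 CPM against 12.8 to 31.1 CPM) did not overlap either. Their part in the lower *Scd1* and *Scd2* was not tested. Replicate 35, left out for its depth, held 133 CPM of the oligodendrocyte markers. It also held 682 CPM of PVN neuron markers, against 20.7 and 13.6 CPM in the chow libraries used. With it among the chow libraries the difference was -0.12 for *Scd1*, -0.02 for *Scd2* and -0.01 for the median of the members. These values are not those of the ARC alone, and no conclusion is drawn from them. With 1 library left out at a time the difference of *Scd1* lay between -0.66 and, without replicate 34, -0.32, that of *Scd2* between -0.53 and -0.34, and the median over members between -0.33 (without replicate 33) and -0.07 (without replicate 34).

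**Figure D5:**
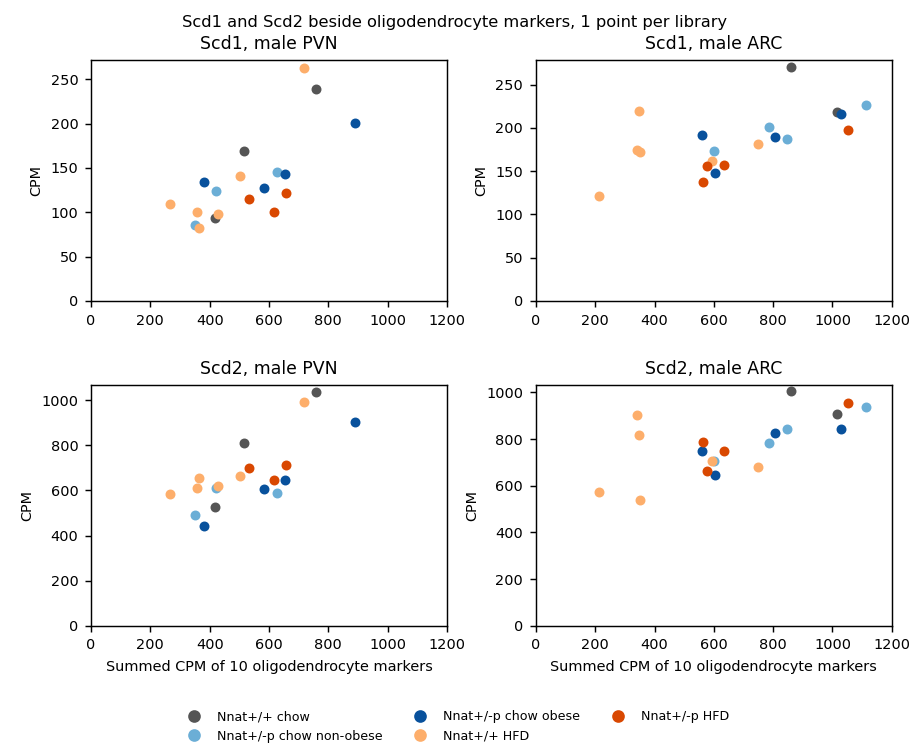
CPM of *Scd1* and *Scd2* against the summed CPM of 10 oligodendrocyte markers in the male PVN and male ARC, with 1 point per library coloured by group. *Scd1* and *Scd2* are scaled with TMM factors, and the marker sums to the total of each library alone. In the PVN, replicates 17, 15 and 23 have the highest marker sums (890, 760 and 717 CPM) and the highest *Scd1* (201, 239 and 262 CPM).

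In the PVN, replicates 17, 15 and 23 had the 3 highest oligodendrocyte sums, 890, 760 and 717 CPM, and also the 3 highest values of *Scd1*, 201, 239 and 262 CPM, and of *Scd2*, 902, 1036 and 992 CPM. Among these 3 of 19 libraries the order of the marker sums was the reverse of that of *Scd1*, and of the 2 ARC *Nnat*+/+ chow libraries the one with the lower sum, replicate 34, had the higher *Scd1*. The 3 belong to 3 different groups, obese *Nnat*+/-p on chow, *Nnat*+/+ on chow and *Nnat*+/+ on HFD. The 3 PVN libraries were picked for their high values, the other libraries appear in the figure only, and this is a description. Any association of the marker sums with *Scd1* or *Scd2* was not tested.

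*Nnat*+/-p mice on HFD had no member in the ARC that passed edgeR's test, and 5 that reached an unadjusted p under 0.05, of which 3 had higher and 2 lower values than on chow. *Hmgcs1* lay at 114.2, 99.04, 120.8 and 112.1 CPM on HFD, at 152, 140, 161 and 141 CPM in non-obese and at 142, 136, 141 and 133 CPM in obese mice on chow. It was the member whose ranges did not overlap, against 0.889% of all genes. The difference was -0.36 (SE 0.14, interval -0.65 to -0.07), with adjusted p = 0.3336 by edgeR, and DESeq2 called it at adjusted p = 0.198, among 4.08% of its 17433 genes. In *Nnat*+/+ mice the ranges of *Hmgcs1* overlapped, at 89.6 to 156 CPM on HFD and 130 and 149 CPM on chow, a difference of -0.27 (SE 0.18).

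*Abca1* lay at 56.9, 43.0, 47.8 and 30.4 CPM on HFD, at 25.5, 47.7, 28.4 and 20.8 CPM in non-obese and at 37.5, 44.2, 22.7 and 39.1 CPM in obese mice on chow. The ranges overlapped widely, with replicate 53 lowest on HFD and replicate 39 highest on chow. They overlapped without these libraries as well, since an HFD library lay at 43.0 CPM and an obese one on chow at 44.2 CPM. The difference was 0.44 (SE 0.20, interval 0.04 to 0.84), with adjusted p = 0.4184 by edgeR. Its adjusted p fell under the threshold without replicate 39 (0.1386), without replicate 53 (0.166), with replicates 39 and 40 summed as 1 (0.1879) and in limma (0.2479, among 2.79% of its genes), and it was 0.9425 at most with another library left out. Its partner *Abcg1*, raised by the same receptors, differed by -0.03 (SE 0.21).

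*Acly* lay at 117, 105, 104 and 120.5 CPM on HFD and between 74.0 and 112 CPM in the 8 chow libraries, a difference of 0.27 (SE 0.13, edgeR adjusted p = 0.4622). *Ebp* lay at 8.12, 10.7, 4.81 and 6.67 CPM on HFD and between 0.561 and 6.21 CPM on chow, a difference of 1.13 (SE 0.50, adjusted p = 0.4087). *Tm7sf2*, a sterol reductase, lay at 0, 2.37, 0.655 and 2.64 CPM on HFD, and at 9.54 and 9.36 CPM in replicates 39 and 40 on chow, which share 1 labelled weight. In the other 6 chow libraries *Tm7sf2* lay between 0.851 and 6.76 CPM, and the difference was -1.69 (SE 0.71, adjusted p = 0.3755). Of 37 members 0 were called, against 3.87% of all genes, and 5 (13.5%) had an unadjusted p under 0.05, against 10.2%. Their median was -0.05 with 14 above 0 and 23 below, beside -0.03 over all genes, and the interval of 29 members lay within a factor of 2. With 1 library left out the median ran from -0.16 (without replicate 53) to -0.02 (without replicate 50). The oligodendrocyte sum was 563 to 1051 CPM on HFD and 561 to 1112 CPM on chow, and overlapped in full. The sum of the ARC neuron markers was 186 to 303 CPM on HFD and 11.9 to 156 CPM in the 8 chow libraries, without overlap, and its part in these differences was not tested.

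Whether diet acted differently in the 2 genotypes was tested as the difference of the 2 diet effects, *Nnat*+/+ minus *Nnat*+/-p. In the PVN 0 members were called, against 0% of all genes, and 1 had an unadjusted p under 0.05, against 3.85%. This was *Pmvk*, at -1.002 on the log2 scale (edgeR adjusted p = 0.9999). In the ARC 0 members were called, against 0.0127% of genes, and 1 had an unadjusted p under 0.05, against 3.83%. This was *Stard4*, at -0.96 (adjusted p = 0.9999), for which the diet difference was -0.73 in *Nnat*+/+ and 0.23 in *Nnat*+/-p mice. The median over members in the PVN was -0.12, -0.02 without replicate 15 and 0.01 without replicates 15 and 24. The interaction intervals are wide, and 11 members in the PVN and 21 in the ARC had theirs within a factor of 2. *Pmvk* and *Stard4* were named after their values were seen. On HFD itself, *Nnat*+/-p against *Nnat*+/+, no member was called in the PVN (0.00569% of genes) or in the ARC (0.0127%), and 0 members had an unadjusted p under 0.05 in either, against 0.99% and 4.54% of all genes. The median difference was -0.08 and 0.08, and 24 and 25 members had an interval within a factor of 2.

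Among chow-fed males no member was called by genotype or by weight in either nucleus. In the PVN the background was 0.0256% of genes for obese *Nnat*+/-p against *Nnat*+/+, 0.0128% for non-obese *Nnat*+/-p against *Nnat*+/+ and 0% for obese against non-obese. Unadjusted p under 0.05 was reached by 1, 0 and 0 of 36 members, against 3.52%, 2.56% and 1.66% of genes. The 1 was *Pmvk*, at 33.2, 14.5 and 27.5 CPM in *Nnat*+/+ mice and 4.46, 12.5, 7.53 and 13.9 CPM in obese mice, which did not overlap. It differed by -1.38 (SE 0.46, interval -2.32 to -0.44, edgeR adjusted p = 0.9998). The median of the members was -0.22 in obese and -0.23 in non-obese mice against *Nnat*+/+, and both comparisons use the same 3 *Nnat*+/+ libraries. Without replicate 15 the first was 0.01 and the second -0.11, and without replicate 13 they were -0.43 and -0.37.

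In the ARC the background of calls was 0.0205% of genes for obese and 0.0136% for non-obese *Nnat*+/-p against *Nnat*+/+, and 0.00682% for obese against non-obese. Unadjusted p under 0.05 was reached by 2, 1 and 2 of 35 members, against 2.59%, 1.9% and 4.25% of genes. For obese against *Nnat*+/+ these were *Scd1*, at 190, 216, 148 and 192 CPM against 219 and 270.5 CPM (-0.40, or -0.23 without replicate 34, edgeR adjusted p = 1), and *Abcg1*, at 52.9, 43.3, 38.6 and 54.1 CPM against 29.0 and 30.8 CPM (0.66, adjusted p = 1). *Insig1*, which holds *Scap* in the endoplasmic reticulum, lay at 35.0, 22.2, 24.7 and 20.6 CPM in obese mice, at 17.0, 12.4, 19.2 and 12.5 CPM in non-obese mice and at 26.6 and 23.0 CPM in *Nnat*+/+ mice. The obese and non-obese ranges did not overlap, with a difference of 0.73 (adjusted p = 0.9989), and that of non-obese against *Nnat*+/+ was -0.68 (adjusted p = 0.9999). *Fdps* differed by 1.98 between obese and non-obese mice (edgeR adjusted p = 0.9989), at 2.84, 3.32, 7.64 and 5.01 CPM against 1.11, 1.68, 1.497 and 0.537 CPM. These are levels of few counts in a gene that shares stretches with 8 other genes. The members named in the chow comparisons were chosen after their values were seen.

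The female PVN gave the least precise estimates, with a median standard error of 0.55 on the log2 scale for obese against *Nnat*+/+ mice. Replicate 10 of the non-obese group stood apart, with 39.3% mitochondrial counts against 16.5% and 21.5% in the other 2, and a mean over members of 4.04 log2 CPM, the lowest of the 3. No member was called, against 0.0129% of genes for obese and 0.00646% for non-obese *Nnat*+/-p against *Nnat*+/+, and 0% for obese against non-obese. Unadjusted p under 0.05 was reached by 1, 2 and 1 of 36 members, against 3.18%, 4% and 3.06% of genes. *Lpl*, the lipase that frees fatty acids from lipoproteins, lay at 0, 0 and 0.577 CPM in obese, 0.255, 18.1 and 4.86 CPM in non-obese and 5.11, 2.21, 2.11 and 5.75 CPM in *Nnat*+/+ females. The obese libraries lay below every *Nnat*+/+ library and overlapped the non-obese ones. For obese against *Nnat*+/+ the adjusted p was 0.9997 by edgeR and for obese against non-obese it was 1, with a difference of -5.18 that was -3.61 without replicate 10 and -9.90 without replicate 12. For the latter comparison DESeq2 gave an adjusted p of 0.2076, among 0.318% of its 18251 genes. *Scap* was at 54.0, 79.5 and 54.3 CPM in non-obese females, above 37.8, 13.3, 25.9 and 40.3 CPM in *Nnat*+/+ females, a difference of 1.09 (adjusted p = 0.9999). *Nsdhl*, a decarboxylase of sterol synthesis, was at 11.3, 2.08 and 4.73 CPM in non-obese females against 14.8, 59.5, 2.23 and 22.3 CPM, a range within the *Nnat*+/+ group that spans more than the difference (-2.02, adjusted p = 0.9999).

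The genes that carry the SREBP switch and the main enzymes did not pass in any of the 4 diet comparisons, given here in the order PVN *Nnat*+/+, PVN *Nnat*+/-p, ARC *Nnat*+/+ and ARC *Nnat*+/-p as log2 differences on HFD. *Srebf2*, the factor of sterol synthesis, differed by -0.09, 0.26, -0.35 and 0.01, with standard errors of 0.17 to 0.23. *Srebf1*, the factor of fatty acid synthesis and a target of liver X receptors, differed by -0.40, 0.24, 0.26 and -0.31, with standard errors of 0.25 to 0.33. *Insig1*, itself a target of SREBP, differed by -0.04, -0.49, -0.30 and -0.09. All of these intervals held 0, and of these 3 genes *Insig1* alone was below 0 in all 4.

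Among the enzymes, *Cyp51*, the lanosterol demethylase, gave values near 0, at 0.06, 0.04, -0.11 and -0.06 in the same order, with standard errors of 0.17 to 0.23. *Sqle*, which makes squalene epoxide, gave -0.47, 0.25, -0.21 and -0.36, and *Fdft1*, which makes squalene, gave -0.12, 0.17, -0.48 and -0.26. *Fads2*, the desaturase that starts polyunsaturated fatty acid synthesis, gave -0.16, 0.36, -0.36 and -0.10, and *Fasn* gave -0.03, 0.21, -0.34 and -0.28. *Apoe*, the most abundant member, gave -0.07, 0.28, -0.33 and -0.04 with standard errors of 0.13 to 0.23. In the ARC of *Nnat*+/+ mice it lay at 955 and 1044 CPM on chow and from 574 to 919 CPM on HFD, without overlap. Its edgeR adjusted p there was 0.6441, and every other value named here also had an adjusted p above 0.25.

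A further 45 genes of the same pathways were listed by function, among them *Cyp46a1*, which hydroxylates cholesterol so that it can leave neurons. None of them were called by edgeR in any of the 17 comparisons. In the ARC of *Nnat*+/+ mice 8 of 42 tested had an unadjusted p under 0.05 on HFD (19%, against 8.54% of all genes), 2 higher and 6 lower. Among the lower ones were *Elovl4* (-0.76), *Fabp7* (-0.84), *Apod* (-0.75) and *Cyp46a1* (-0.78 on the log2 scale), with edgeR adjusted p from 0.3265 to 0.5296. The higher ones were *Abca7* (1.79) and *Cyp27a1* (5.33), neither of them called. Counts and standard errors of these genes are not given here. The size of these differences against 2 chow libraries can therefore not be judged. The share was below that of all genes in the other 3 diet comparisons, with 1 of 42 in the ARC of *Nnat*+/-p mice (2.38%, against 10.2%), 3 of 44 in the PVN of *Nnat*+/+ mice (6.82%, against 10.3%) and 2 of 44 in that of *Nnat*+/-p mice (4.55%, against 7.05%). The oligodendrocyte and neuron markers that did not overlap between diets in the ARC of *Nnat*+/+ mice, given above, differed beside these genes as well, and their part was not tested.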

How the data were processed

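RNA from laser-captured PVN and ARC was sequenced as total RNA libraries of low input, and the deposited tables hold the authors' counts of reads per gene as whole numbers without normalization. The submitters' processing notes name STAR 2.5.0a and GRCm38. The counting tool, the strand setting and the treatment of reads that map to several genes are not given in the sources used here. Groups and weights were taken from the labels. Replicates 5, 7 and 35 (2302, 812815 and 271324 counts) and replicate 32, whose label and table name different nuclei, were left out.

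Within each nucleus and sex, edgeR 4.0.16 (R 4.3.3) was fitted to the counts of all genes kept by filterByExpr (minimum count 10) with TMM factors and the quasi-likelihood test. Diet comparisons used all male groups of a nucleus, and chow comparisons the 3 chow groups. Benjamini-Hochberg adjustment ran over all genes tested, and genes under 0.25 were called. CPM of single genes use library sizes adjusted by TMM factors, and CPM of marker sums use the total counts of each library. Module means are mean log2 CPM with a prior count of 2. Intervals cover 95%. Named members are, in each diet comparison, up to 3 in each direction with the smallest unadjusted p under 0.05. The members and the lists were chosen with earlier results of these data known. Promoter windows came from RefSeq (GRCm38.p6) and gene positions from GENCODE on GRCm38. Alternatives were DESeq2 1.42.0, limma 3.58.1 (voom with sample quality weights), RLE scaling, an adjusted p under 0.05, other filters, other sets of libraries or groups, and each replicate left out in turn. The scripts were tested on simulated data. Some genes of the wider pathway list are not reported here by name. Ranges of total counts are given per nucleus and sex, and small groups and, for some members, few counts limit precision.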

Additional observations from a re-analysis of the deposited data

Results flagged for a closer look

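Each library of the groups of 4 to 10 was set against the others by Dixon's test, in 105 groups of values, and 8 values from 6 libraries stood apart, where chance gives about 5% of groups. No explanation of them was tested. In the PVN of *Nnat*+/+ mice on HFD, replicate 23 was highest for *Scd1* (262.3 CPM against 81.8 to 141 CPM in the other 5), for *Scd2* (992.0 CPM against 585 to 664 CPM) and for the mean of the fatty acid synthesis genes (6.7924 against 6.27 to 6.45 log2 CPM), and it also had the highest oligodendrocyte marker sum of its group, 717 CPM. In the ARC of *Nnat*+/+ mice on HFD, replicate 44 was lowest for the mean of the SREBP control genes (4.4686 against 4.75 to 4.90 log2 CPM), and it carried the lowest oligodendrocyte sum, 214 CPM.

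Among chow-fed mice of the ARC, the mean of all members was lowest in replicate 43 of the non-obese group (4.2004 against 4.55 to 4.57 log2 CPM), which also held the least ARC neuron markers of its group, 11.9 CPM, and in replicate 42 of the obese group (4.5408 against 4.69 to 4.71 log2 CPM). *Ebp* was highest in replicate 21 of the obese PVN group (13.9 CPM against 2.62 to 4.26 CPM), and *Pmvk* was lowest in replicate 3 of the female *Nnat*+/+ group (15.36 CPM against 28.4 to 30.6 CPM).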

How the results depend on the processing

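No paired analysis was run. The replicate numbers run from 1 to 53 and match no library of a group to one of another group. Some PVN and ARC libraries share a labelled weight, but every comparison was made within a nucleus. Of 293 counts of members called under an alternative, 284 kept the count of 0. The 17 at an adjusted p under 0.05 are among these and could not differ, since no member was under 0.25 in the same fits. In the ARC of *Nnat*+/+ mice on HFD the count was 2 by DESeq2 and 2 by limma (*Scd1* and *Scd2*, both lower), and 1 with all labelled libraries (*Insig1*). For *Nnat*+/-p mice of the ARC on HFD it was 1 by DESeq2 (*Hmgcs1*), 1 by limma and 1 with replicates 39 and 40 summed (both *Abca1*), and with 1 replicate left out it ran from 0 to 2. The 2 are *Abca1* and *Tm7sf2* without replicate 53, and *Abca1* was the 1 without replicate 39. In the female PVN it was 1 by DESeq2 for obese against non-obese mice (*Lpl*). No named member changed sign under any alternative run. The named members were picked for a small p in these libraries, which the alternatives mostly reuse, so a kept sign is no independent support. The cause of the changed counts was not tested. With replicate 35 in the ARC, medians of the members moved by more than the spread of libraries. They went from -0.21 to -0.01 for *Nnat*+/+ mice on HFD. On chow, against *Nnat*+/+, they went from 0.02 to 0.28 for obese and from -0.08 to 0.16 for non-obese mice. The diet by genotype difference went from -0.16 to 0.05, and was 0.02 without replicate 34. Replicate 35 held 682 CPM of PVN neuron markers, so medians with it are not those of the ARC alone. In the PVN the median of the diet by genotype difference was -0.33 without replicate 13. Members with a median under 30 counts, such as *Idi1*, *Lpl*, *Fdps* and *Tm7sf2*, are limited by depth, and the 2 ARC *Nnat*+/+ chow libraries limit every comparison that uses them.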
